A study of Rattus norvegicus with 15 samples.

Results

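The genes described here are 10 that mark the endothelial cells lining islet capillaries, Pecam1, Cdh5, Kdr, Flt1, Tek, Tie1, Plvap, Esam, Vwf and Sox18. They were chosen by name as known markers of that cell type, with earlier results of these data known. Of these 10, 9 were found among the 28914 gene rows of the count table, and Pecam1 was not analysed here. Polyadenylated RNA of isolated islets of Langerhans from Lewis rats was sequenced 10 weeks after surgery in 15 libraries. In 10 libraries the rats had lost 90% of the pancreas (partial pancreatectomy, Px) and in 5 they had a sham operation, and the study asks how raised blood glucose affects islet cells. The labels give an average blood glucose for each rat, with no unit. Higher-glucose Px (n = 3, replicates 13, 15 and 19) had values of 416 to 464, lower-glucose Px (n = 7, replicates 2, 4, 8, 10, 11, 14 and 16) had 104 to 211, and Sham (n = 5, replicates 23 to 27) had 88 to 96. All groups share strain, tissue and time, and the labels call all rats 4 to 5 weeks old without saying at which point. The labels number the libraries but do not state that each is a separate rat, so the p-values measure the spread between these libraries. The islets of a Px rat come from a remnant of pancreas, so surgery and raised glucose come together in this model, and the Px group holds both.

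Islets carry a dense network of fenestrated capillaries, which beta cells maintain mainly by secreting VEGF-A. VEGF-A acts through the receptor tyrosine kinases encoded by Kdr and Flt1, while the angiopoietins act through Tek, with Tie1 as its partner, to set how stable a vessel is. Cdh5 and Esam hold neighbouring endothelial cells together, Plvap forms the diaphragms of the fenestrae, Vwf is a clotting glycoprotein stored in endothelial granules, and Sox18 is a transcription factor of the endothelial lineage.

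In the coordinates of the count table, for which no source used here names a build, Flt1 is at chr12:9034308-9205905 on the plus strand and Kdr at chr14:34727623-34787183 on the plus strand. Tek is at chr5:113725717-113852799 on the plus strand and Tie1 at chr5:137294544-137321121 on the minus strand. Cdh5 is at chr19:1023683-1074365 on the minus strand, Esam at chr8:39997875-40008809 on the plus strand and Plvap at chr16:19906318-19918689 on the minus strand. Vwf is at chr4:158088505-158219523 on the plus strand and Sox18 at chr3:177177310-177179127 on the minus strand. Counts cover all annotated exons of a gene, and no other gene in the table has an exon overlapping an exon of these 9.

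Promoter windows, running from 250 bases before to 50 bases after the gene start, were found for 4 of the 9 genes and are shown because these genes split below into both patterns: Kdr and Flt1 did not pass the test between Px and Sham, and Tie1 and Plvap did. They are RefSeq sequences of the GRCr8 build, written 5′ to 3′ on the gene's own strand, with AGGAAG or its reverse complement CTTCCT, a core bound by ETS-family factors, in capitals. The windows lie at chr14:32571813-32572112 for Kdr on the plus strand, chr12:12333180-12333479 for Flt1 on the plus strand, chr5:137304932-137305231 for Tie1 on the minus strand and chr16:18231230-18231529 for Plvap on the minus strand.
Kdr: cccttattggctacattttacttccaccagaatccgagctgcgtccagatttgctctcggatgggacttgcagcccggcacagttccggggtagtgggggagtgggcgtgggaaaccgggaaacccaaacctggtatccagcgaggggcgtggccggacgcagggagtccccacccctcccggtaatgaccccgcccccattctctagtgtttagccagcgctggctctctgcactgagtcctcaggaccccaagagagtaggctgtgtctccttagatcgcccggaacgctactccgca
Flt1: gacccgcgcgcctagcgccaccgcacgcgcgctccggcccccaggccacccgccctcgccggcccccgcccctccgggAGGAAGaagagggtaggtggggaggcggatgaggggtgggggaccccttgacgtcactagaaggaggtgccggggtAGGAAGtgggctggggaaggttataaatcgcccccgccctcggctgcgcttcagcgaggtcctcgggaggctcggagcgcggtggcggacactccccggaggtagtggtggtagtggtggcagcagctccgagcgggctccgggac
Tie1: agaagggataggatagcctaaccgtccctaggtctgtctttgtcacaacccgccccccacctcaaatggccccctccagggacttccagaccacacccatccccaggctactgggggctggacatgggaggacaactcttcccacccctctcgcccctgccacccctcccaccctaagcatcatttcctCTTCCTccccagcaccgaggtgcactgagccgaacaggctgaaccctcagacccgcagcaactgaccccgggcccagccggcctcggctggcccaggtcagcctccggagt
Plvap: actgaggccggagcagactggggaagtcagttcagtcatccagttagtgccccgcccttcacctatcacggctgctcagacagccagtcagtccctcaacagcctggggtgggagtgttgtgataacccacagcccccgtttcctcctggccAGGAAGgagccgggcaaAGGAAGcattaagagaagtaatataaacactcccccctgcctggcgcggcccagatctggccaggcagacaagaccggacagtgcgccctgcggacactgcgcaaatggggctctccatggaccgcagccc

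The motif AGGAAG, counted on both strands with overlapping matches allowed, occurred 0 times in the Kdr window, 2 times in the Flt1 window, 1 time in the Tie1 window and 2 times in the Plvap window. It occurred at least once in 34.3% of all 27457 rat promoter windows of this length. GGGCGG, the core of a GC box, occurred 1 time in the Kdr window, 3 times in the Flt1 window, 1 time in the Tie1 window and 1 time in the Plvap window, and in 34.9% of all windows. The Flt1 window had the highest GC content of the 4, 72.7%, against 61% for Kdr, 64.3% for Tie1 and 61% for Plvap. A match describes the letters in the window and does not show that a factor binds there.

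Libraries held 22.3 to 33.4 M counted reads in higher-glucose Px, 19.1 to 31.6 M in lower-glucose Px and 12.2 to 18.4 M in Sham. Values below are CPM, read counts relative to library sizes scaled by TMM, a method that assumes most genes do not change. Px and Sham islets also differed in markers of other cell types. All 14 measured macrophage markers passed as higher in Px (summed 756 to 3959 CPM in Px against 31.8 to 72 CPM in Sham, with lower-glucose replicate 8 highest), as did 17 of 18 acinar markers (summed 164273 to 771696 CPM in Px against 6725 to 118129 CPM in Sham, with Sham replicate 25 highest in its group). All 10 fibroblast markers were also higher (986 to 7527 CPM in Px against 112 to 448 CPM in Sham), while the 8 endocrine granule genes summed to 7531 to 13086 CPM in Px against 12955 to 17291 CPM in Sham. Over all genes tested 34.5% passed as higher and 30.2% as lower. Fits with the macrophage or the acinar score as a covariate are given below, and these scores cannot be told apart from surgery. The part of the fibroblast and endocrine markers in the endothelial values was not tested. In these bulk libraries endothelial cells of islets cannot be told apart from those of other tissue in the preparation. Nor can more endothelial cells be told apart from more RNA per endothelial cell.

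Neither of the VEGF receptors Flt1 and Kdr passed the test between Px and Sham. Flt1, which binds VEGF-A tightly and signals weakly, measured 142, 135 and 196 CPM in higher-glucose Px replicates 13, 15 and 19. In lower-glucose Px it measured 137, 150 and 181 CPM as the lowest, median and highest value. In Sham it measured 102, 130, 130, 146 and 146 CPM. No Px library lay below the Sham range, 5 of 10 lay above it, and the groups overlapped. Kdr, the main signalling receptor for VEGF-A, measured 103, 103 and 165 CPM in higher-glucose Px. It measured 93.1, 121 and 129 CPM as the lowest, median and highest value in lower-glucose Px, and 115, 130, 120, 138 and 137 CPM in Sham. Its groups overlapped, with 1 Px library above and 5 below the Sham range. Over all 10 Px libraries Flt1 averaged 154 ± 19.8 CPM in Px and 131 ± 17.9 CPM in Sham (SD, n = 10 and n = 5), a log2 difference of 0.23 ± 0.1 (SE, adjusted p = 0.0605, quasi-likelihood test of edgeR, adjusted by Benjamini-Hochberg over all genes). Kdr averaged 116 ± 21.7 CPM in Px and 128 ± 10.4 CPM in Sham, a log2 difference of -0.14 ± 0.12 (adjusted p = 0.314, same edgeR test). A difference of Flt1 of this size sat at the threshold: it passed when lower-glucose Px replicate 10, higher-glucose Px replicate 15 or Sham replicate 26 was left out, with adjusted p-values of 0.0428, 0.0416 and 0.0484 in edgeR. It also passed with all libraries when genes were filtered on a mean CPM of at least 1 (0.26, adjusted p = 0.0371, edgeR).

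Tek and Tie1, the angiopoietin receptor and its partner, were higher in every Px library than in any Sham library. Tek measured 60.2, 63.9 and 91.8 CPM in higher-glucose Px, 39.7, 50.7 and 67.3 CPM (lowest, median, highest) in lower-glucose Px, and 19.3, 25.4, 25.7, 28.1 and 27.5 CPM in Sham. The lowest Px library thus exceeded the highest Sham library by more than the whole Sham range. Tie1 measured 81.5, 91.2 and 95.5 CPM in higher-glucose Px, 59.8, 81.6 and 106 CPM in lower-glucose Px, and 23.3, 25.2, 25.7, 45.2 and 30.7 CPM in Sham. Sham replicate 26 was the highest Sham library for both, and for Tie1 its 45.2 CPM compares with 30.7 CPM in the next Sham library. Tie1 averaged 84.3 ± 15 CPM in Px and 30 ± 8.91 CPM in Sham, a log2 difference of 1.49 ± 0.17 and the largest among the 9 genes (adjusted p = 1.17e-06, edgeR). Tek averaged 59.1 ± 14.1 CPM in Px and 25.2 ± 3.47 CPM in Sham, a log2 difference of 1.23 ± 0.16 (adjusted p = 5.34e-06, edgeR).

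The junction genes Cdh5 and Esam followed the same order. Cdh5, which encodes VE-cadherin of endothelial adherens junctions, measured 47.7, 49.2 and 77.3 CPM in higher-glucose Px, 40.2, 51.8 and 66.6 CPM in lower-glucose Px, and 19.3, 22.6, 21.3, 28.6 and 25.8 CPM in Sham. Esam, an immunoglobulin-family adhesion molecule of endothelial tight junctions that platelets also carry, measured 35, 37.3 and 52 CPM in higher-glucose Px, 24.1, 31.8 and 41.4 CPM in lower-glucose Px, and 13.7, 15.6, 17.6, 20.7 and 13.9 CPM in Sham. Neither gene's groups overlapped, and higher-glucose replicate 19 was the highest library for both. Cdh5 averaged 54.8 ± 11.3 CPM in Px and 23.5 ± 3.69 CPM in Sham, a log2 difference of 1.22 ± 0.15 (adjusted p = 2.4e-06, edgeR). For Esam the means were 36.1 ± 7.89 CPM in Px and 16.3 ± 2.91 CPM in Sham, a log2 difference of 1.14 ± 0.16 (adjusted p = 1.05e-05, edgeR).

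Plvap, Vwf and Sox18 were also higher in Px, by smaller or less even amounts. Plvap measured 171, 244 and 172 CPM in higher-glucose Px, 89, 115 and 143 CPM in lower-glucose Px, and 69.1, 54.2, 73.6, 140 and 81.6 CPM in Sham. All 3 higher-glucose libraries lay above every Sham library, but the lower-glucose libraries overlapped Sham through Sham replicate 26, at 140 CPM. Plvap averaged 141 ± 45.2 CPM in Px and 83.7 ± 33.1 CPM in Sham, a log2 difference of 0.76 ± 0.24 (adjusted p = 0.0104, edgeR). Vwf measured 62.8, 64.5 and 76.1 CPM in higher-glucose Px, 61.6, 68 and 89.9 CPM in lower-glucose Px, and 40.2, 34.2, 48.1, 53.1 and 58.8 CPM in Sham. Its groups did not overlap, by a narrow margin between the lowest Px and the highest Sham library. Vwf averaged 70.2 ± 8.9 CPM in Px and 46.9 ± 9.85 CPM in Sham, a log2 difference of 0.58 ± 0.12 (adjusted p = 0.000475, edgeR). Platelets and megakaryocytes also make Vwf, and the 7 platelet markers summed to 3.45 to 8.49 CPM in Px and 0.489 to 1.21 CPM in Sham, with Gp1bb at 0 in every library and Ppbp at 0 in every Sham library. The part of platelets in the Vwf values was not tested.

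Sox18, the only transcription factor among the 9, had the lowest level. It measured 11.8, 14.6 and 11.4 CPM in higher-glucose Px, 3.23, 7.19 and 13.2 CPM in lower-glucose Px, and 3.7, 3.13, 3.32, 6.09 and 5.39 CPM in Sham. Of the 10 Px libraries, 8 lay above the highest Sham library, and lower-glucose replicates 8 and 11 lay within the Sham range. Sox18 averaged 9.15 ± 3.56 CPM in Px and 4.33 ± 1.33 CPM in Sham, a log2 difference of 1.08 ± 0.3 (adjusted p = 0.00432, edgeR).

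**Figure D1:**
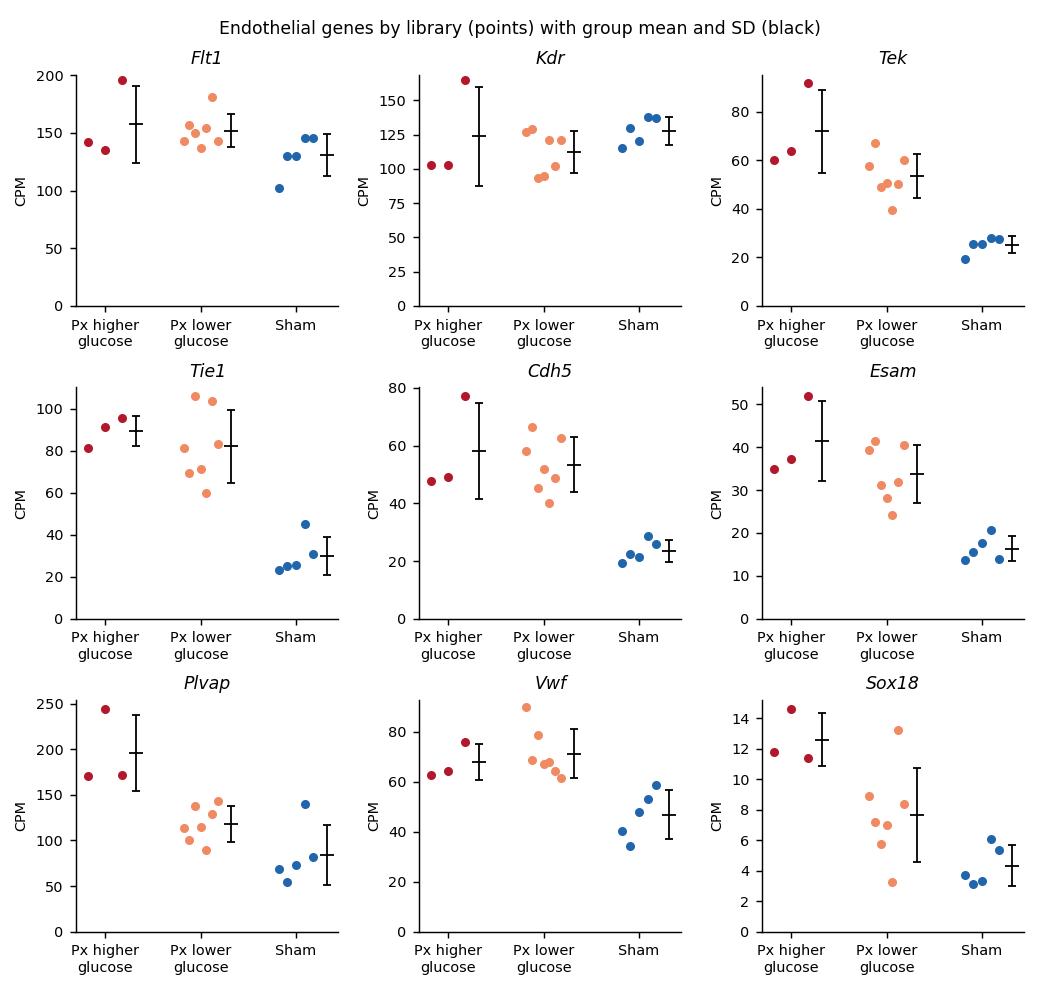
CPM of each of the 9 endothelial genes (vertical axes, each from 0) in higher-glucose Px (n = 3), lower-glucose Px (n = 7) and Sham (n = 5), with a point per library and the group mean and SD in black. The Px points of Tek, Tie1, Cdh5, Esam and Vwf all lie above the Sham points, and those of Flt1 and Kdr overlap them.

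In all, 7 of the 9 genes passed as higher in Px, 0 as lower and 2 did not pass, with a median log2 difference of 1.08 against 0.02 over all genes. Calls were common in this comparison: 64.7% of the 15199 genes tested passed in either direction, 34.5% as higher and 30.2% as lower. Every Px library lay above every Sham library for 5 of the 9 genes (Cdh5, Tek, Tie1, Esam and Vwf), against 20.8% of all genes tested. The 9 genes summed to 599 to 937 CPM in Px and 405 to 606 CPM in Sham, ranges that overlap, and Flt1, Kdr and Plvap make up most of both sums. Each Px group on its own gave the same 7 calls against the shared Sham libraries. In higher-glucose Px against Sham 57.7% of the 15661 genes tested passed, 32.2% as higher and 25.5% as lower, and in lower-glucose Px against Sham 63.5% passed, 33.6% as higher and 30% as lower. Plvap had the widest gap between these, with a log2 difference of 1.22 ± 0.24 for higher-glucose Px and 0.49 ± 0.2 for lower-glucose Px (adjusted p = 0.000415 and 0.0388, edgeR). The lower-glucose call for Plvap was lost when lower-glucose replicate 8, 14 or 16 or Sham replicate 23, 24, 25 or 27 was left out, with adjusted p of 0.0595 to 0.108.

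The size of these differences depended on how libraries were scaled. With library totals alone, the median of all genes moved to -0.62 on the log2 scale. Only Cdh5, Tek and Tie1 still passed as higher and Kdr passed as lower (-0.77, adjusted p = 0.00444, edgeR). Of the 15199 genes tested 2667 then passed as higher and 7950 as lower, so 25.1% of all calls were higher, against 53.3% under TMM. With libraries scaled on the 8 endocrine granule genes, the median of all genes moved to 0.61. All 9 genes then passed as higher, Kdr by 0.44 (adjusted p = 0.00273, edgeR). On this scale 9175 of the 15199 genes tested passed as higher and 715 as lower, so 92.8% of all calls were higher. A change of scaling shifts all genes by about the same amount, so it moves which calls pass and leaves the distance of a gene from the median of all genes nearly as it was. Kdr changed sign with the scaling for this reason and lay a little below the median of all genes each time: -0.14 against 0.02 under TMM, -0.77 against -0.62 under library totals and 0.44 against 0.61 under endocrine scaling. The same shared shift lies behind the other changes of sign under library totals and endocrine scaling given below. The marker scores of macrophages (4.89 to 6.41 in Px, 0.8 to 1.79 in Sham, mean log2 CPM) and of acinar cells (11.54 to 13.47 in Px, 7.05 to 10.88 in Sham) each separated the groups completely. Surgery and these scores therefore cannot be told apart: with the acinar score as a covariate 5 of the 9 genes passed and Plvap (0.44, adjusted p = 0.554) and Sox18 (0.56, adjusted p = 0.538) did not, and with the macrophage score 0 of the 9 and 0 of all genes passed in edgeR. The log2 differences fitted beside the macrophage score were 1.55 for Cdh5, 1.69 for Tek, 1.16 for Esam and 1.12 for Sox18, no smaller than without it, and 0.33 for Plvap, 0.29 for Vwf and -0.13 for Tie1, so the loss of calls does not show how much of the differences goes with the score.

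To set levels of different genes side by side, CPM was divided by the exon length in the count table. Per kb of exon, Plvap was highest, with 70.5 ± 22.5 CPM per kb in Px and 41.7 ± 16.5 in Sham (SD, n = 10 and n = 5). In Px the next 4 were Flt1 (22.1 ± 2.84 CPM per kb), Tie1 (18.4 ± 3.27), Kdr (18.3 ± 3.43) and Esam (17.8 ± 3.9), whose mean ± SD intervals overlapped one another. Cdh5 (13.6 ± 2.8) and Tek (13 ± 3.09) followed, then Vwf (7.95 ± 1.01) and Sox18 (5.6 ± 2.18), whose intervals overlapped each other but not that of Tek. In Sham the order was different. Kdr (20.2 ± 1.64 CPM per kb) and Flt1 (18.8 ± 2.57) stood well above Esam (8.06 ± 1.44), Tie1 (6.56 ± 1.95), Cdh5 (5.85 ± 0.917), Tek (5.52 ± 0.762) and Vwf (5.31 ± 1.12), which overlapped their neighbours, and Sox18 (2.65 ± 0.813) was lowest. The levels of Tie1 and Esam thus lay in the range of the VEGF receptors in Px and below it in Sham.

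A second fit asked whether each gene moved more or less than endothelial genes in general. Library sizes were set to the summed counts of 20 other pan-endothelial markers, none of them among the 9, and these markers summed to 348 to 709 CPM in Px and 231 to 329 CPM in Sham. On this scale the median of all genes was -0.91, 81.7% of the 15199 genes tested passed, 15.5% as higher and 66.2% as lower, and of the 9 genes 3 passed as higher, 3 as lower and 3 did not pass. Kdr was lower than the panel by 1.09 on the log2 scale (a difference of -1.09 ± 0.13, adjusted p = 6.17e-07, edgeR), which is further down than the median of all genes. Flt1 differed by -0.69 ± 0.14 (adjusted p = 0.000191, edgeR) and Vwf by -0.33 ± 0.15 (adjusted p = 0.0458, edgeR). Tie1 stood above the panel by 0.59 ± 0.16 (adjusted p = 0.00195, edgeR), Cdh5 by 0.27 ± 0.11 (adjusted p = 0.0331) and Tek by 0.26 ± 0.12 (adjusted p = 0.042). Plvap (-0.14, adjusted p = 0.504), Esam (0.18, adjusted p = 0.15) and Sox18 (0.14, adjusted p = 0.592) did not pass. The calls of Kdr (-1.17 to -1.03), Flt1 (-0.76 to -0.64) and Tie1 (0.53 to 0.67) passed in all 15 fits that left out 1 library, and those of Cdh5 passed in 8, Tek in 6 and Vwf in 5 of 15. Without the low-count filter Cdh5, Tek and Vwf did not pass. When each panel gene was given the same weight, Kdr (-1.48) and Flt1 (-1.08) were called lower as well, Plvap was too (-0.57, adjusted p = 0.0122), and so was Vwf (-0.73, adjusted p = 0.000768, edgeR). Tie1 (0.18, adjusted p = 0.336), Cdh5 (-0.14, adjusted p = 0.321) and Tek (-0.14, adjusted p = 0.271) did not pass under equal weights, so their calls depended on the weighting. Equal weights also gave full weight to panel genes with few reads. Among these are Robo4, which was not tested after the low-count filter, and Cldn5, with a log2 difference of 5.23 ± 0.76 between Px and Sham.

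**Figure D2:**
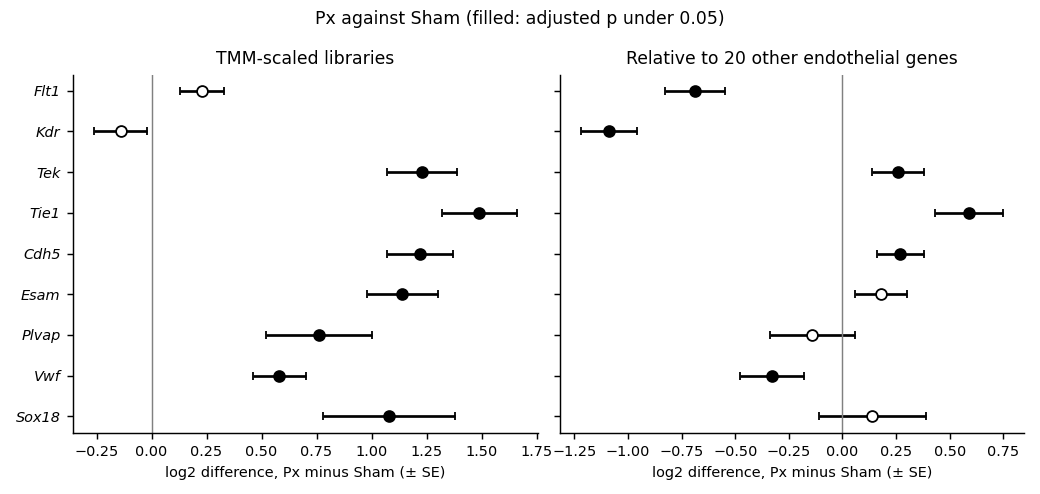
Log2 difference, Px minus Sham, with its SE for each of the 9 genes (rows), on TMM-scaled libraries (left) and relative to 20 other endothelial genes (right), with filled points for adjusted p under 0.05. Kdr and Flt1 lie near 0 on the left and at -1.09 and -0.69 on the right, where Tie1 is at 0.59.

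Ratios within a library do not depend on its scaling. The 3 ratios given here were chosen after values were seen, and their p-values do not account for that choice. The log2 ratio of Flt1 to Kdr, per kb of exon, was 0.28 ± 0.21 in Px (0.04 to 0.69, SD, n = 10) and -0.11 ± 0.12 in Sham (-0.3 to -0.01, n = 5). Per kb of exon, Flt1 exceeded Kdr in all 10 Px libraries and in 0 of 5 Sham libraries. This count depends on the exon lengths used, 6968 bases for Flt1 and 6334 for Kdr. In read counts alone Flt1 also exceeded Kdr in Sham replicates 24, 25, 26 and 27 (2571 against 2562 reads in replicate 24). Exon lengths do not affect the difference between Px and Sham. The difference of 0.39 had an exact permutation p of 0.00233 over 3003 splits (two-sided, 0.00349 adjusted over the 3 ratios computed). The log2 ratio of Tek to Tie1 was -0.52 ± 0.35 in Px and -0.22 ± 0.29 in Sham, overlapping ranges and a difference of -0.3 (exact permutation p = 0.116, two-sided). Of the 15 leave-outs of 1 library, that of Sham replicate 26 brought the p under 0.05 (a difference of -0.42, exact permutation p = 0.033, not adjusted). That library has the lowest ratio in Sham, -0.68, so leaving it out can only widen the difference. Among their ligands, the log2 ratio of Angpt2, which antagonises Tek in many settings, to Angpt1, its activating ligand, was 1.39 ± 0.63 in Px (0.53 to 2.39) and 3.48 ± 1 in Sham (2.17 to 4.93). The difference of -2.08 had an exact permutation p of 0.000666 (two-sided, 0.002 adjusted), although Angpt1 rests on 2 to 19 reads per Sham library. Between higher- and lower-glucose Px the differences of the 3 ratios were -0.08, 0.27 and 0.2, with exact permutation p of 0.625, 0.225 and 0.675 over 120 splits.

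**Figure D3:**
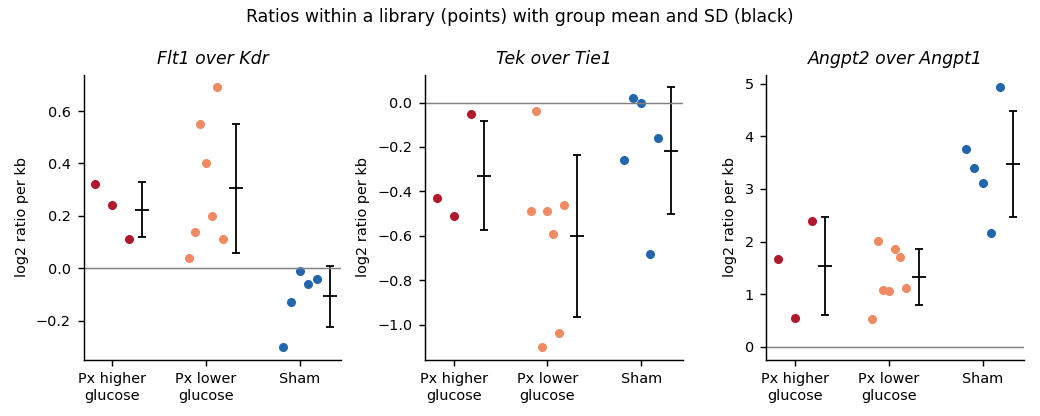
Log2 ratio within a library, per kb of exon, of Flt1 to Kdr, Tek to Tie1 and Angpt2 to Angpt1 (vertical axes) in higher-glucose Px, lower-glucose Px and Sham, with a point per library and the group mean and SD in black. Flt1 over Kdr lies at 0.04 to 0.69 in Px and at -0.3 to -0.01 in Sham.

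Within the operated rats, none of the 9 genes passed between higher- and lower-glucose Px (0 of 9 in edgeR, where 4.88% of 15661 genes passed, 3.29% as higher and 1.59% as lower, and 3 of 9 at an unadjusted p under 0.05, where 22.8% of all genes did). The 9 genes had a median log2 difference of 0.14, against -0.02 over all genes. Plvap came nearest, at 196 ± 41.6 CPM in higher-glucose Px and 118 ± 19.8 CPM in lower-glucose Px (SD, n = 3 and n = 7), with all 3 higher-glucose libraries above all 7 lower-glucose libraries, as for 5.39% of all genes (4.46% had the reverse order). Its log2 difference was 0.73 ± 0.22 (adjusted p = 0.0724, edgeR). It passed in DESeq2 (0.71, adjusted p = 0.0333), with the macrophage score as a covariate (0.87, adjusted p = 0.0297) and without Sham replicate 26, which enters only through the shared spread (0.73, adjusted p = 0.0171, edgeR). Sox18 averaged 12.6 ± 1.75 CPM in higher-glucose Px and 7.66 ± 3.07 CPM in lower-glucose Px, a log2 difference of 0.72 ± 0.3 (adjusted p = 0.164, edgeR). Tek averaged 72 ± 17.2 CPM in higher-glucose Px and 53.6 ± 8.99 CPM in lower-glucose Px, a log2 difference of 0.43 ± 0.16 (adjusted p = 0.125). The other 6 genes differed by -0.07 (Vwf) to 0.29 (Esam), with adjusted p of 0.329 to 0.851. Acinar markers summed to 339040 to 666030 CPM in the higher-glucose libraries and 164273 to 771696 CPM in the lower-glucose ones, overlapping ranges, and fibroblast markers to 986 to 2116 CPM in the higher-glucose libraries and 3010 to 7527 CPM in the lower-glucose ones, ranges that do not overlap. The acinar score was used only as a covariate, and the part of the fibroblast markers in these differences was not tested.

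No slope of the 9 genes on glucose passed among the 7 lower-glucose Px libraries, and Sox18 had the steepest. In order of rising glucose (104, 119, 132, 152, 155, 157 and 211) it measured 13.2, 8.37, 8.92, 7.19, 5.73, 7.03 and 3.23 CPM. These are highest at the lowest glucose and lowest at the highest, without falling at every step. The first lies in the range of higher-glucose Px and the last in the range of Sham. The slope per doubling of glucose was -1.8 ± 0.29 on the log2 scale (adjusted p = 0.396 over all genes, edgeR), and it ranged from -1.96 to -1.56 when each library was left out in turn. It passed in DESeq2 (-1.82, adjusted p = 0.000204). In edgeR 0% of the 15695 genes tested passed for this slope, 0 of the 9 among them, and at an unadjusted p under 0.05 there were 1432 genes (9.12%) and 3 of the 9, Sox18, Tie1 (-0.62 ± 0.26) and Plvap (-0.52 ± 0.23). The higher-glucose libraries, at 11.4 to 14.6 CPM for Sox18, do not lie on a continuation of its slope. In simulated counts the slope fit recovered 0% of genes given a slope of 1 per doubling and 64.5% at a slope of 2. A slope that did not pass is therefore not shown to be absent.

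**Figure D4:**
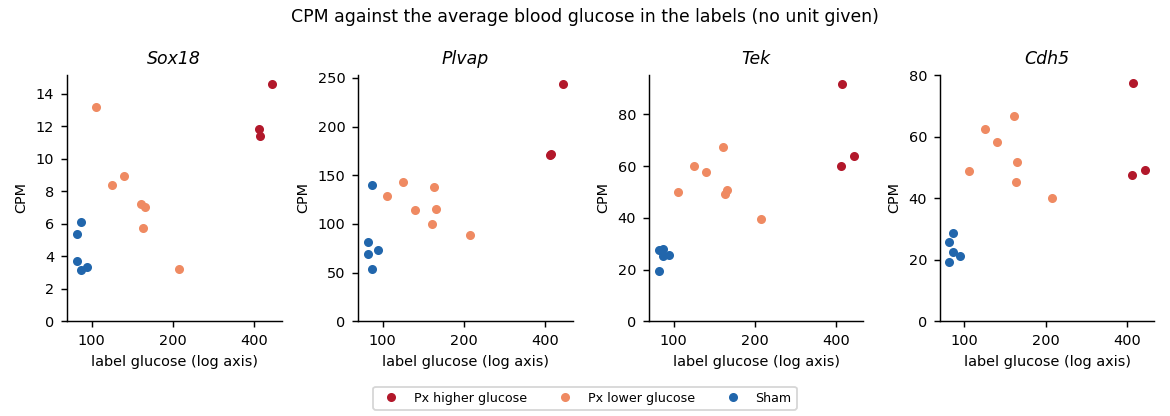
CPM of Sox18, Plvap, Tek and Cdh5 (vertical axes, from 0) against the average blood glucose in the labels (horizontal log axis, no unit given), with a point per library in higher-glucose Px, lower-glucose Px and Sham. Sox18 lies at 11.4 to 14.6 CPM in the higher-glucose libraries, and in the lower-glucose ones it is highest (13.2 CPM) at the lowest glucose and lowest (3.23 CPM) at the highest.

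The VEGF ligands and co-receptors moved in both directions, with 5 of 8 tested higher, 2 lower and 1 not passing. Over all genes tested 34.5% were higher and 30.2% lower, shares to set beside this and the list counts below. Vegfa, the ligand that beta cells make in quantity, averaged 165 ± 22 CPM in Px (141 to 196) and 334 ± 82.3 CPM in Sham (243 to 434). Its log2 difference was -1.02 ± 0.13 (adjusted p = 4.08e-06, edgeR), and its sign turned with the macrophage score as a covariate. Its groups did not overlap, and 16.4% of all genes tested had every Px library below every Sham library. Of the 8 endocrine granule genes 4 were lower too and 0 higher, with a median log2 difference of -0.42. Their part in the Vegfa value was not tested. Vegfb, a ligand of Flt1 alone among the VEGF receptors, averaged 19.8 ± 3.85 CPM in Px and 29.6 ± 3.56 CPM in Sham (-0.58 ± 0.13, adjusted p = 0.000887), a direction that turned to 0.02 under endocrine scaling. Pgf, a further Flt1 ligand, was higher at 2.27 ± 0.623 CPM in Px and 0.837 ± 0.121 CPM in Sham (1.44 ± 0.23). The co-receptors were higher too: Nrp1 averaged 123 ± 20.7 CPM in Px and 65 ± 5.78 CPM in Sham (0.92 ± 0.12) and Nrp2 38.6 ± 12.3 CPM in Px and 13.5 ± 2.17 CPM in Sham (1.52 ± 0.22). Flt4, the receptor of lymphatic vessels, averaged 15.7 ± 2.78 CPM in Px and 11.2 ± 1.24 CPM in Sham (0.48 ± 0.13), and its sign turned to -0.13 under library totals. Vegfd was higher (2.32 ± 0.44) and Vegfc, both ligands of Flt4, did not pass (0.18, adjusted p = 0.336, edgeR). The Nrp1 call was lost under library totals (0.31, adjusted p = 0.275).

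All 5 angiopoietin ligands and partners were higher in Px, where 34.5% of all genes were, with a median log2 difference of 1.74. Angpt1 averaged 2.42 ± 0.808 CPM in Px and 0.375 ± 0.281 CPM in Sham (2.65 ± 0.39, adjusted p = 1.62e-05, edgeR). Angpt2 averaged 8.31 ± 3.31 CPM in Px and 4.82 ± 0.655 CPM in Sham (0.79 ± 0.23, adjusted p = 0.00731), a call lost under library totals (0.17, adjusted p = 0.643) and without lower-glucose Px replicates 8 and 16 and Sham replicates 25 and 26 (0.74, adjusted p = 0.0682). Ptprb, the endothelial phosphatase that acts on Tek and VE-cadherin, averaged 107 ± 20.3 CPM in Px and 59.2 ± 9.9 CPM in Sham (0.85 ± 0.13). Svep1, an extracellular protein that binds Tie1, averaged 15.3 ± 6.44 CPM in Px and 4.6 ± 1.34 CPM in Sham (1.74 ± 0.3).

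Of the 20 other pan-endothelial markers 19 were tested, and 18 of these were higher in Px with a median log2 difference of 1.17. Over all genes tested 34.5% were higher and 30.2% lower. Examples are Cd34 (39.4 ± 7.82 CPM in Px, 14.3 ± 2.51 CPM in Sham), Rasip1 (21.2 ± 3.22 CPM in Px, 9.48 ± 1.34 CPM in Sham) and the Sox18 relative Sox17 (5.79 ± 2.07 CPM in Px, 1.17 ± 0.208 CPM in Sham). Of 17 endothelial transcription factors tested, 15 were higher, 1 lower and 1 did not pass. This list shares genes with that of the pan-endothelial markers, Sox17 among them, so the counts are not separate. Elk3 (1.27 ± 0.1), Nr2f2 (2 ± 0.19) and Ets1 (1.18 ± 0.13) were among the higher ones, and Ets2 was lower by a small amount (-0.21 ± 0.08, adjusted p = 0.0292, edgeR). The Ets2 call was lost without lower-glucose Px replicate 10 or 14, higher-glucose Px replicate 13 or 15 or Sham replicate 25, 26 or 27, and its sign turned to 0.39 under endocrine scaling. Of 10 sprouting and tip cell genes, 8 were higher, among them Pdgfb (1.02 ± 0.14), which recruits pericytes. Esm1, a tip cell proteoglycan gene that responds to VEGF-A, was lower, at 9.46 ± 3.13 CPM in Px and 17.3 ± 2.92 CPM in Sham (-0.86 ± 0.2, adjusted p = 0.00111, edgeR), a call lost under endocrine scaling (-0.28, adjusted p = 0.33) and with the acinar covariate (-0.08, adjusted p = 0.88).

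Among 8 leukocyte adhesion and activation genes 7 were higher, where 34.5% of all genes were, with a median log2 difference of 3.07. Vcam1 averaged 33.5 ± 24.1 CPM in Px and 1.4 ± 0.737 CPM in Sham, Icam1 29.3 ± 18.7 CPM in Px and 2.15 ± 0.36 CPM in Sham, and Jam2 45.1 ± 11.3 CPM in Px and 16.6 ± 1.78 CPM in Sham. Vcam1 and Icam1 are also made by stromal and immune cells. Of 11 genes whose products sit at the junctions with Cdh5, Pecam1 and Esam, 6 were higher, 2 lower and 3 did not pass, near the 64.7% of all genes that passed in either direction. Magi1 (1.46 ± 0.17) and F11r (0.72 ± 0.1) were higher, and the scaffolds Tjp1 (-0.47) and Afdn (-0.46), which epithelial and endocrine cells share, were lower, with values of 0.11 and 0.12 under endocrine scaling, where the median of all genes is 0.61. Ctnnd1, the catenin that binds VE-cadherin, did not pass (-0.17, adjusted p = 0.118, edgeR). Cldn5, the claudin of endothelial tight junctions, had 5 to 106 reads per Px library and 0 to 3 reads per Sham library. All 10 pericyte markers were higher (summed 492 to 996 CPM in Px and 191 to 248 CPM in Sham), with a median log2 difference of 1.22. Acta2 had the smallest p, at 331 ± 102 CPM in Px and 43.1 ± 10.5 CPM in Sham. Des had the largest log2 difference (3.68 ± 0.36, against 2.94 ± 0.26 for Acta2), and the others ranged from 0.82 (Cspg4) to 1.35 (Pdgfrb). The median of the fibroblast markers was 4.03, and their part in the pericyte values was not tested. Of 7 lymphatic markers 6 were higher, including Lyve1 (3.86 ± 2.33 CPM in Px, 0.264 ± 0.147 CPM in Sham), which macrophages also express. Prox1, which islet endocrine cells also express, was lower (-0.52 ± 0.1), and turned to 0.05 under endocrine scaling.

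**Figure D5:**
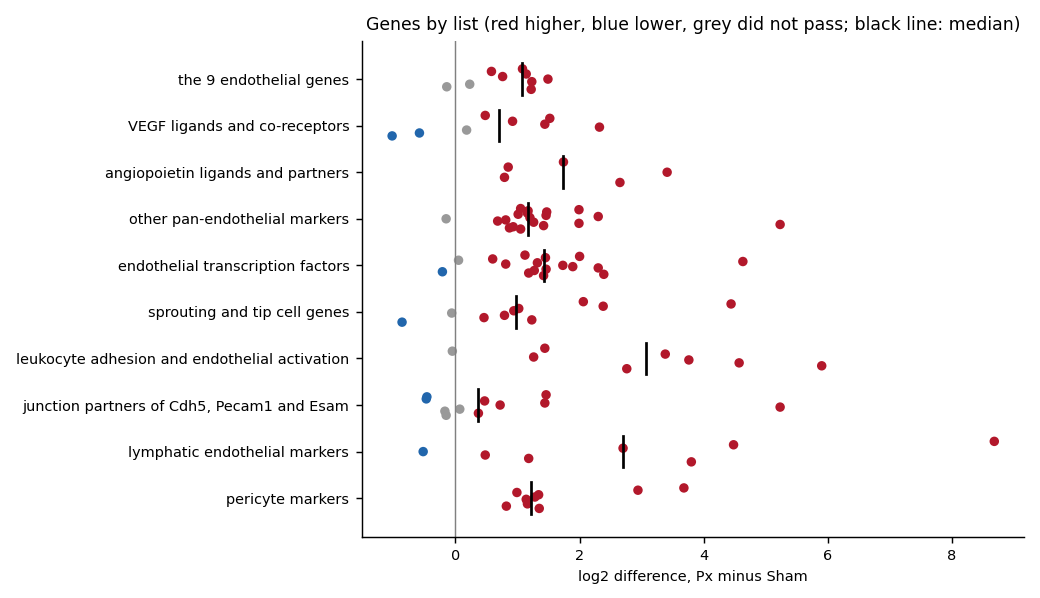
Log2 difference, Px minus Sham, of each tested gene (points; red passed as higher, blue as lower, grey did not pass) in the 9 endothelial genes and 9 related lists, with the list median as a black line. The median of the 9 genes is 1.08, that of other pan-endothelial markers 1.17 and that of the VEGF ligands and co-receptors 0.7.

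Between higher- and lower-glucose Px, 8 genes of these endothelial and pericyte lists passed, 4 as higher (Klf2, Sox17, Gpihbp1 and Dll4) and 4 as lower (Nid2, Vcam1, Nrp2 and Pdgfrb), named here after their values were seen. Over all 15661 genes tested 4.88% passed, 3.29% as higher and 1.59% as lower. Higher were 2 of 19 pan-endothelial markers, 2 of 17 transcription factors (Sox17 is on both lists) and 1 of 10 sprouting genes. Lower were 1 of 10 sprouting genes, 1 of 8 VEGF genes, 1 of 8 adhesion genes and 1 of 10 pericyte markers. The angiopoietin, junction and lymphatic lists had 0 calls. Of the 10 fibroblast markers 4 passed as lower too and 0 as higher, with a median log2 difference of -1.23. Their part in the lower calls was not tested. Klf2, a flow-responsive factor, averaged 7.58 ± 0.914 CPM in higher-glucose Px and 3.21 ± 1.43 CPM in lower-glucose Px (log2 difference 1.24, adjusted p = 0.0199, edgeR), and Sox17 averaged 8.3 ± 1.78 CPM in higher-glucose Px and 4.72 ± 0.932 CPM in lower-glucose Px (0.82, adjusted p = 0.0207). The Notch ligand Dll4 averaged 13 ± 1.54 CPM in higher-glucose Px and 8.42 ± 1.33 CPM in lower-glucose Px (0.63, adjusted p = 0.0211, edgeR). The basement membrane gene Nid2 was lower, at 25.1 ± 4.05 CPM in higher-glucose Px and 45.4 ± 7.08 CPM in lower-glucose Px (-0.85, adjusted p = 0.00606, edgeR). The other lower genes were Vcam1 (-1.71, adjusted p = 0.0303), Nrp2 (-0.76, adjusted p = 0.031) and Pdgfrb (-0.64, adjusted p = 0.0485), and Gpihbp1, the capillary anchor of lipoprotein lipase, was higher (0.96, adjusted p = 0.0242). Under library totals all of these calls but that of Nid2 were lost (adjusted p of 0.0546 to 0.698), and under endocrine scaling the 4 higher ones were (0.107 to 0.229). Without higher-glucose replicate 13 all but the Sox17 call were lost (0.0542 to 0.219), and the Sox17 call was lost without higher-glucose replicate 15 (0.128) or 19 (0.0799). Lower-glucose replicate 2 also decided the calls of Gpihbp1, Vcam1, Nrp2 and Pdgfrb (0.0511 to 0.0745 without it), and the Pdgfrb call was lost in most fits that left out 1 library.

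Within groups the 9 genes varied together to different degrees. After each gene's log2 CPM was centred on its group mean, the Pearson correlation with the mean of the other 8 over 15 libraries was 0.77 for Cdh5, 0.75 for Tek, 0.73 for Esam and 0.7 for Tie1. It was 0.58 for Sox18, 0.54 for Flt1, 0.54 for Plvap, 0.47 for Vwf and 0.39 for Kdr. These values share library, depth and cell makeup and are descriptions only. Sham replicate 26 had the highest mean deviation of the 9 genes, 0.37 on the log2 scale, and lower-glucose replicate 11, with the highest glucose of its group, had the lowest, -0.35. The 8 genes of the whole table whose centred levels were most like the mean of the 9 were Il34 (r = 0.93), Vwa1 (0.92), Eng (0.92), Serping1 (0.9), Tppp3 (0.9), Pcdh12 (0.9), Mmrn2 (0.89) and Tmem204 (0.88). Eng and Mmrn2 are on the list of other pan-endothelial markers. Of these 8, Il34 (1.5), Vwa1 (1.24), Eng (0.87), Serping1 (1.2), Mmrn2 (0.81) and Tmem204 (0.5) passed as higher in Px and Tppp3 (0.2, adjusted p = 0.368) and Pcdh12 (0.07, adjusted p = 0.638) did not. The Tmem204 call was lost without Sham replicate 23 or 24 (adjusted p = 0.0539 and 0.0611).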

How the data were processed

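Polyadenylated RNA of 15 islet samples was sequenced; per the labels' protocols it was extracted with a miRNeasy kit and made into directional libraries. The authors deposited raw read counts per gene and exon lengths in bases, per the file headers, in a table with featureCounts columns. Per the submitters' processing notes FastQC, Subread, featureCounts and limma were used (no versions named), and no source used here names the genome build, annotation or strand setting. The authors' comparison table was not used.

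Groups came from the labels, with the boundary between the Px groups at a glucose of 300. Low counts were removed with filterByExpr (minimum count 10, minimum total 15), libraries scaled by TMM and tested two-sided with edgeR 4.0.16 quasi-likelihood in R 4.3.3, Benjamini-Hochberg adjusted over all genes tested at 0.05. Px and Sham were compared in a model of 2 groups, comparisons with the Px groups apart in a model of 3 groups, and slopes on log2 glucose within the 7 lower-glucose libraries. The relative fit set library sizes to the summed counts of 20 other endothelial markers. Ratios used counts plus 0.5 per kb of exon and exact permutation tests, and likeness used log2 CPM with a prior count of 2 in genes of mean CPM of at least 1. Fits were checked on simulated counts. The endothelial genes and all gene lists were chosen with earlier results of these data known. Named genes are the 9 measured of the 10, their direct ligands and partners, at most 3 higher and 3 lower genes per list by smallest p, and the 8 genes most like them in pattern; the 3 ratios and the genes named between the Px groups were added after values were seen. Alternatives were other scalings, filters, DESeq2 1.42.0, limma voom 3.58.1, acinar and macrophage covariates, equal panel weights and leaving out libraries. Depth was 12.2 to 33.4 M reads per library. The number of counts behind a value, 59 to 336 reads for Sox18 in Px, limits its precision.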

Additional observations from a re-analysis of the deposited data

Results flagged for a closer look

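The 9 endothelial genes and the 3 ratios were checked in lower-glucose Px and in Sham for 1 library far from the rest of its group. None of these 24 sets of values held such a library, where chance alone gives about 1 in 20. Higher-glucose Px, with 3 libraries, was too small for this check and was not covered by it. No difference between the Px groups passed for the endothelial genes in edgeR (0 of 9, where 4.88% of all genes passed, and 3 of 9 at an unadjusted p under 0.05, where 22.8% did).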

How the results depend on the processing

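Px against Sham gave 7 calls among the 9 endothelial genes, as did RLE, no low-count filter, DESeq2 and voom. It gave 8 with a mean CPM of at least 1 (Flt1 added), 9 under endocrine scaling, 5 with the acinar covariate, 4 under library totals (3 higher and Kdr lower), 0 with the macrophage covariate and 7 to 8 when each library was left out. Higher-glucose Px against Sham lost all 7 of its higher calls under library totals, where the 2 calls (Kdr and Flt1) are lower, and it gave 4 with the acinar covariate, 0 with the macrophage covariate and 6 to 7 on leave-outs, and lower-glucose Px against Sham 0 with the macrophage covariate and 6 to 7 on leave-outs. Higher- against lower-glucose Px gave 1 in DESeq2, 1 with the macrophage covariate, 1 without lower-glucose Px replicates 8 and 16 and Sham replicates 25 and 26 (a choice made after seeing the data) and 0 to 1 on leave-outs. The slope on log2 glucose gave 1 in DESeq2 and 0 to 0 on leave-outs. The relative fit gave 3 without the low-count filter, 3 without those 4 libraries and 3 to 6 on leave-outs. The ratio of Tek to Tie1 differed by -0.42 without Sham replicate 26 and by -0.42 to -0.24 over all leave-outs.

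Signs that turned, on the log2 scale, were these. Library totals and endocrine scaling shift all genes alike (medians of -0.62 and 0.61 over all genes for Px against Sham), so the turns under them follow from the shift. Under library totals, Px against Sham gave -0.01 for Vwf, -0.57 for Pcdh12, -0.14 for Tmem204 and -0.13 for Flt4, higher-glucose Px against Sham -0.70 for Flt1 and -0.44 for Vwf, and lower-glucose Px against Sham -0.01 for Plvap. Under endocrine scaling, Px against Sham gave 0.44 for Kdr, 0.02 for Vegfb, 0.42 for Ctnnd1, 0.39 for Ets2, 0.11 for Tjp1, 0.12 for Afdn and 0.05 for Prox1, and lower-glucose Px against Sham 0.47 for Kdr. With the macrophage covariate, Px against Sham gave -0.13 for Tie1, 0.05 for Vegfa, -0.60 for Nrp2, -0.11 for Pdgfb, -0.33 for Icam1, 0.10 for Tjp1, 0.56 for Afdn and 0.62 for Prox1. With it, higher-glucose Px against Sham gave -0.30 for Tie1 and -0.17 for Plvap, and lower-glucose Px against Sham -0.63 for Tie1, -1.04 for Plvap and -0.34 for Sox18. With equal panel weights, Cdh5 and Tek gave -0.14 each. These weights also rescale the libraries, and the endothelial genes all moved down by similar amounts, such as Kdr from -1.09 to -1.48 and Tie1 from 0.59 to 0.18. A further 50 values called in neither fit changed sign. The cause of the changes with the covariate was not tested.

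Over all genes, the 9838 calls of Px against Sham became 5790 with the acinar and 0 with the macrophage covariate. The 9043 of higher-glucose Px against Sham became 4236 and 3, and the 9949 of lower-glucose Px against Sham 6285 and 0, in the same order. Px against Sham gave 10617 calls under library totals (2667 higher and 7950 lower) and 9890 under endocrine scaling (9175 higher and 715 lower). Higher-glucose Px against Sham gave 10939 under library totals (1865 higher and 9074 lower). The 764 calls between the Px groups became 142 under library totals, 418 under endocrine scaling, 1351 in DESeq2 and 270 to 983 on leave-outs, and the 0 of the slope became 1 without the filter and 106 in DESeq2. No paired analysis was possible because the Px and Sham libraries share no replicate number.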
